A study of Mus musculus with 12 samples.

Results

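The cytosolic ribosome of the mouse is built from ribosomal RNA and a set of ribosomal proteins, each made in most tissues from a single active gene. The genes described here are the cytosolic ribosomal protein genes, and their messenger RNA was followed in bone marrow-derived dendritic cells (BMDCs) with and without the chromatin-organizing factor CTCF, at rest and after lipopolysaccharide (LPS). Members were taken by symbol (Rpl or Rps followed by digits and nothing else or one of the letters a, x and l, together with Rplp0, Rplp1, Rplp2 and Rpsa) and were then selected on their measured level, a mean of at least 10 TPM (transcripts relative to all transcripts of a library, corrected for length) over the 12 libraries. Of 55335 genes in the files, 83 fitted the symbol and 77 of these passed the level. They comprised 43 genes of the large subunit, 31 of the small subunit and the 3 genes of the large subunit's stalk. The level that chose the members left a wide gap. The lowest member, Rps20, had a mean of 413 TPM, whereas the highest gene outside, Rpl6l, had 6.53 TPM. The 5 others outside were Rps4l at 4.74, Rpl3l at 3.42, Rpl32l at 1.63, Rpl39l at 0.53 and Rpl10l at 0 TPM. Of these 6, Rpl6l, Rpl32l and Rps4l are annotated as pseudogenes, and Rpl3l, Rpl10l and Rpl39l are paralogs known for expression in muscle or testis. All 77 members had a group mean above 10 TPM in each of the 4 groups, and all 77 passed the count filter.

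The cells came from bone marrow of C57BL/6 mice of both sexes, 8 to 12 weeks old, that carried CreER at the Rosa26 locus, a tamoxifen-dependent recombinase active in most cell types. The wild-type group (WT) carried CreER alone, and the CTCF-deficient group (KO) carried CreER with the CTCF fl/fl alleles. Marrow was grown for 6 days with GM-CSF, 4-hydroxytamoxifen was given on the first day, and cells bearing CD11c were enriched with magnetic beads. The study's text can be read as giving 4-hydroxytamoxifen to KO cultures and not to WT cultures, and then the agent and the deletion cannot be told apart. WTL and KOL are the WT and KO cells stimulated with LPS, a bacterial ligand of TLR4, at 100 ng/ml for 3 h. Each group had 3 libraries that the labels number separately. The study's methods call them biological replicates. The labels do not say whether they came from separate mice, and the p-values measure the spread between these libraries only.

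Ribosomal protein messages are among the most abundant and most stable of the cell. Many begin at the cap with a run of pyrimidines, the 5' terminal oligopyrimidine (TOP) tract, through which the mTOR pathway controls their translation rather than their amount. Cells that divide or are activated generally make more ribosomes, and free ribosomal proteins such as RPL5 and RPL11 bind MDM2 and thereby stabilize p53.

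Total expected counts were 12769773 to 16586334 per library. The Ctcf message stood at 1051, 987 and 975 normalized counts in WT and at 570, 562 and 516 in KO, and its groups did not overlap (log2 fold change -0.87 ± 0.08, SE, with an edgeR adjusted p = 3.9e-07). The LPS libraries gave 886, 817 and 745 for WTL and 563, 530 and 526 for KOL. Reads assigned to Ctcf thus remained in every KO library, and which part of the gene they came from was not examined. The study itself reported efficient depletion of CTCF message and protein, with CTCF binding to chromatin lost or much lower. Libraries of the LPS groups were less alike than those at rest, with a biological coefficient of variation of 13.7% in WTL and 14.4% in KOL against 4.92% in WT and 2.62% in KO. WTL replicate 1 and KOL replicate 2 stood apart from their groups, with 8.80% and 10.04% of TPM in mitochondrially encoded genes, where the other LPS libraries had 4.68% to 5.77%. In this they were nearer to the unstimulated libraries, which had 6.98% to 8.34% in WT and 9.63% to 9.88% in KO. WTL replicate 2 held 5.17% of its counts in genes of ribosomal RNA, where the other 11 libraries held 1.19% or less. Dendritic cell markers were abundant in every library (7 of 7 genes, summing to 7197 to 15029 TPM), and T, NK, B, plasmacytoid and red cell markers summed to at most 1.13 TPM and mast cell markers to at most 4.3 TPM. Macrophage markers summed to 217 to 656 TPM over the libraries and neutrophil markers to 192 to 440 TPM. How RNA was selected is uncertain, since a poly(A) kit is named in the methods and removal of ribosomal RNA in the labels. In bulk RNA, fewer cells of a type and less RNA per cell cannot be told apart. The depth was ample for the members, so that the spread between libraries and not counting error limited what could be called.

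The 77 genes together supplied a large share of all message. Their summed TPM was 14.7%, 15.7% and 15.3% of the library total in WT, 12.6%, 13.3% and 15.98% in WTL, 13.5%, 13.3% and 13.4% in KO, and 16.04%, 14.7% and 16.3% in KOL. The KO libraries lay below all WT libraries and below all KOL libraries, whereas WTL overlapped both WT and KOL. The mean share was 15.2% ± 0.49 (SD, n = 3) in WT, 14.0% ± 1.79 in WTL, 13.4% ± 0.13 in KO and 15.7% ± 0.87 in KOL. An exact two-sided permutation test over libraries gave p = 0.1 both between KO and WT and between KOL and KO, which is the smallest value that 3 against 3 libraries allow. The same exact permutation test gave p = 0.4 between WTL and WT and p = 0.2 between KOL and WTL. Since this test cannot go below 0.1 here, and the members were chosen with earlier results of these data known, it decides nothing. The shares are a description. Large subunit genes supplied 6.98% and small subunit genes 7.27% of TPM in WT. Because these genes are short, their share of expected counts was smaller, between 4.39% and 6.13% per library.

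**Figure D1:**
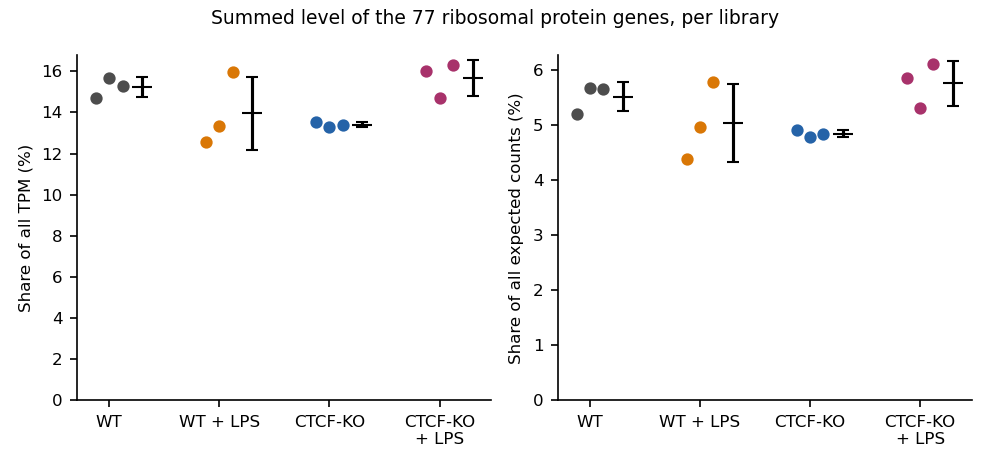
Summed share of the 77 ribosomal protein genes in each library, as a percent of all TPM (left) and of all expected counts (right). Points are libraries and bars are the group mean ± SD (n = 3). The 3 KO libraries lie below the 3 WT and the 3 KOL libraries on both scales. The WTL libraries spread most, from replicate 1, the lowest of all libraries on both scales, up into the range of the KOL libraries.

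Levels differed widely between members although the proteins are needed in equal number, apart from the stalk proteins. On the TPM scale, which is per transcript length, the highest members were the stalk gene Rplp1 with a mean of 6495 TPM, Rps27 with 5833 TPM and Rps29 with 5385 TPM. The lowest were Rps20 with 413, Rpl21 with 605 and Rpl28 with 652 TPM. Rplp1 and Rplp2 encode the acidic proteins that form dimers on the RPLP0 base of the stalk and recruit translation factors. Rps27 and Rps29 encode small zinc-binding proteins of the 40S subunit.

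Promoter sequence from RefSeq (build GRCm38.p6) was held for 57 of the 77 members, as 68 annotated starts. The windows give the 30 bases around the start of members named in the comparisons, from 15 bases before it, since the TOP tract is read there. Capitals mark the part of the longest pyrimidine run near the start that falls in the window. Where a gene has several annotated starts, 1 is shown.
Rps6, chr4:86857353-86857382, minus strand: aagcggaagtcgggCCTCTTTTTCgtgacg
Rps18, chr17:33955651-33955680, minus strand: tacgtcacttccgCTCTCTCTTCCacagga
Rps27, chr3:90213634-90213663, minus strand: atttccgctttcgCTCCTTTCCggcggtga
Rpl13a, chr7:45128731-45128760, minus strand: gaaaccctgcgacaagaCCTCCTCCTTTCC
Rpl34, chr3:130730323-130730352, minus strand: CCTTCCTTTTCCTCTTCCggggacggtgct
Rps4x, chrX:102189377-102189406, minus strand: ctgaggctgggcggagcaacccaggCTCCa
Rps3, chr7:99483695-99483724, minus strand: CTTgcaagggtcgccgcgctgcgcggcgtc
Rplp0, chr5:115559452-115559481, plus strand: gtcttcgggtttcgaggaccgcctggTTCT

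A run of at least 8 pyrimidines lay within 20 bases of the annotated start for 30 of 68 member starts (44.1%), against 16.1% of all 32851 promoters and 17.3% of those of mitochondrial ribosomal protein genes. The motif CTTTC on the coding strand in the same 40 bases was found at 26.5% of member starts and 5.49% of all promoters. CGGAAGT, a core bound by ETS factors and searched on both strands over 300 bases, was found at 32.4% of member starts, 6.42% of all promoters and 22.7% of mitochondrial ribosomal protein gene promoters. The YY1-type motif AAGATGGC, also on both strands, was found at 10.3% of member starts and 2.75% of all promoters, and at 16% of mitochondrial ribosomal protein gene promoters. No member start and no mitochondrial ribosomal protein gene promoter had TATAAA between 40 and 11 bases upstream, where 2.08% of all promoters had it. These are letter matches at annotated starts, which need not be the starts used in these cells.

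Reads of these genes are shared with copies. Alignment of transcripts assigned 1684 annotated pseudogenes to the 77 members (at least 80% identity over at least 50% of the pseudogene), and 252 of them had a mean of at least 1 expected count. Pseudogenes took 3.51% of the summed counts of members and pseudogenes, with 3.41% to 3.74% in single libraries, so that the division was almost the same in every group. Of the 77 members, 72 shared at least 1 stretch of 100 bases with another gene's transcripts, 16 shared more than 50% of such stretches, and the median share was 23.2%. Rpl36a and Rps6 had the highest share at 83.6%. Rpl22, Rps3, Rps21 and Rps27l were among those that shared none.

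Reads were also shared with genes not annotated as pseudogenes. Gm10076, annotated as a lincRNA, shared 9.8% of the 100-base stretches of Rpl41 and had a mean of 6751 counts beside 7423 for Rpl41. The pseudogenes with the most reads belonged to a few members. Gm15500, a copy of Rpl5 on chromosome 7, had a mean of 2534 counts beside 8460 for Rpl5. Gm10275 had 2130 beside 6793 for Rpl12, and the pseudogenes of Rpl11 together had 2329 beside 7114. Pseudogenes thus held 24.7% of the pooled reads of Rpl11, 24.1% of those of Rpl12 and 23.1% of those of Rpl5, and at least 10% for 8 members in all. Whether these reads came from the gene or from its copy cannot be told apart. The first 60 coding bases of the pair Rps23 and Rps23-ps1 are shown in capitals because all 60 are identical in both; 425 of 432 coding bases of Rps23 match without a break.
Rps23 and Rps23-ps1, coding bases 1 to 60: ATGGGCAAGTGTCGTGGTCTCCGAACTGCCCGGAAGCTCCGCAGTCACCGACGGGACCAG

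Adding every assigned pseudogene to its member left the calls close to those of the genes alone, at 71 rises for WTL against WT in place of 70 and 74 for KOL against KO in place of 73.

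LPS stimulation of WT cells moved the ribosomal protein genes together, and the direction depended on how libraries were scaled. With TMM scaling (edgeR quasi-likelihood test, Benjamini-Hochberg adjusted p under 0.05 over 14008 genes), 70 of 77 members rose and none fell, whereas 30.0% of all genes rose and 30.2% fell. Scaled to total counts, 1 member rose and 15 fell, against 14.5% of all genes that rose and 60.1% that fell. A change of library size moves all genes alike, so that the position of the members relative to other genes is the same in both fits by construction. All 77 lay above the median gene, with a median log2 fold change of 0.38 against -0.02 with TMM and of -0.13 against -0.53 with total counts. On log2(TPM + 1), where limma called 1 rise and 21 falls, 76 of 77 lay above the median gene and the gap was 0.29. Of the limma calls over all genes, 18.5% were rises, so that falls prevailed there too.

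**Figure D2:**
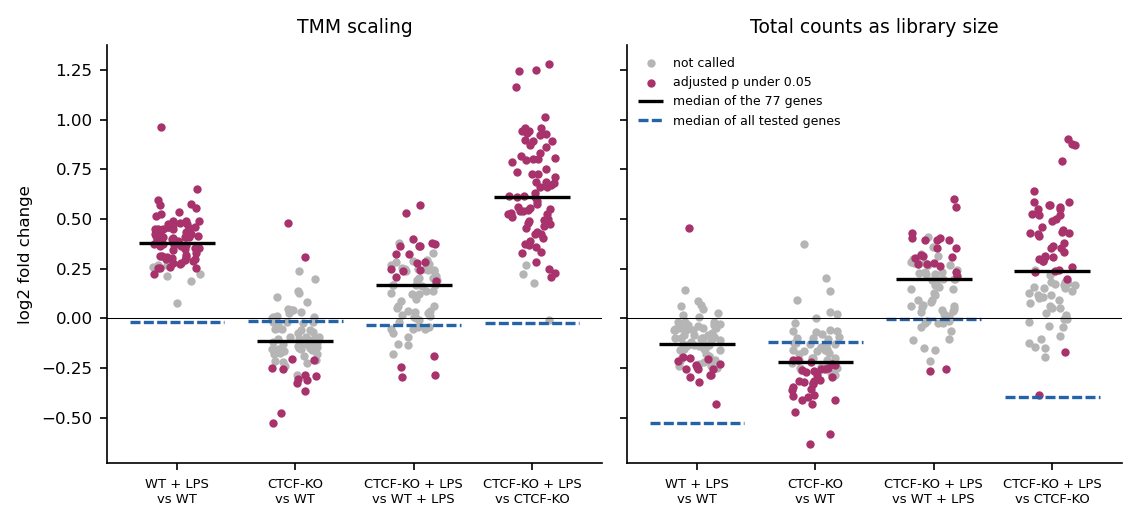
Log2 fold change of each of the 77 genes in the 4 comparisons, with TMM scaling (left) and total counts as library size (right). Coloured points passed an adjusted p under 0.05, black bars are the median of the 77 genes and dashed bars the median of all tested genes. After LPS the 77 genes sit above the median gene in both panels, but in WT cells they lie above 0 with TMM and mostly below 0 with total counts.

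Among large subunit genes, 37 of 43 rose with TMM scaling, and all 3 stalk genes did. Rpl24, which takes part in a bridge between the subunits, had 6089, 5891 and 5980 normalized counts in WT and 9206, 9231 and 9741 in WTL. Its groups were far apart, and the log2 difference of 0.65 ± 0.07 (SE, adjusted p = 2.8e-06) stayed above 0 with total counts (0.14). Rpl34 followed, with 5666, 5864 and 6380 in WT and 7647, 9170 and 10252 in WTL (0.60 ± 0.11, adjusted p = 2.7e-04). The low value of WTL belongs to replicate 1, and still exceeded every WT library. Rpl7, the reference gene of the study's RT-qPCR, had 10595, 10767 and 10916 in WT and 13786, 14804 and 16674 in WTL, a log2 fold change of 0.49 ± 0.09 with TMM and of -0.02 with total counts. The groups of Rpl7 did not overlap on the TMM scale, while on the scale of total counts no change was detected.

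Rpl3, whose protein reaches into the peptidyl transferase centre, had the log2 fold change nearest to 0 with TMM scaling but fell with total counts (-0.43). It had 9918, 10625 and 10756 normalized counts in WT and 10464, 11212 and 11364 in WTL, and these ranges overlap (0.08 ± 0.07, adjusted p = 0.33). The other members not called with TMM were Rpl22, Rpl32, Rpl27a, Rpl8, Rpl36 and Rps18, whose log2 fold changes were 0.19 to 0.27.

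In the small subunit, 30 of 31 genes rose with TMM scaling. Rps27l, the paralog of Rps27 that p53 is known to induce, had 1951, 2016 and 2043 normalized counts in WT and 3551, 3883 and 4266 in WTL. This was the largest rise of all members, 1.95-fold (log2 0.96 ± 0.09, adjusted p = 2.6e-07), and the only one called with total counts as well (0.45). Rps27 itself had 7123, 7526 and 7927 in WT and 10743, 10604 and 12256 in WTL, a log2 fold change of 0.57 ± 0.08 that was 0.07 with total counts. Of the summed TPM of Rps27 and Rps27l, the paralog held 11.2% ± 0.14 (SD, n = 3) in WT and 14.0% ± 0.76 in WTL. Rps6, the target of the S6 kinases, had 10941, 11870 and 11488 in WT and 13723, 15050 and 16731 in WTL (0.41 ± 0.07 with TMM, -0.10 with total counts).

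Members in common use as reference genes were above 0 with TMM scaling and, apart from Rps18 with its p just over the threshold, passed it. Differences between these genes were not tested. Rplp0, the base of the stalk, had 17065, 19405 and 18594 normalized counts in WT and 20212, 25453 and 27488 in WTL (0.41 ± 0.10 with TMM, -0.10 with total counts). Rps18 had 10913, 13066 and 13074 in WT and 11875, 15890 and 16888 in WTL, which overlap (0.27 ± 0.11, adjusted p = 0.052). Rpl13a had a log2 fold change of 0.33 ± 0.11 with TMM and -0.18 with total counts. The remaining genes of known extra or late roles were alike on the TMM scale and below 0 with total counts. They were Rpl10, which joins the large subunit late (0.32 and -0.19), Rpl39, which lines the exit tunnel (0.42 and -0.08), the ubiquitin fusion Rps27a (0.45 and -0.06), Rps3 (0.32 and -0.19), Rps4x (0.36 and -0.15) and Rpsa (0.39 and -0.12). The MDM2 binding pair had 0.23 and -0.28 for Rpl5 and 0.30 and -0.21 for Rpl11.

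Of the members that rose, 39 did so by at least 1.3-fold, against 24.4% of all genes. The count of rises rested on single libraries to some degree. Without WT replicate 1 it was 33, without WT replicates 2 or 3 it was 50 or 51, without WTL replicate 3 it was 51, and with both WTL replicate 1 and KOL replicate 2 left out it was 76. The share of all genes called in these fits is not given, so whether the members differed from other genes there cannot be told. Other markers moved in the same comparison. Of the tested markers 5 of 6 for neutrophils (summing to 374 to 397 TPM in WT and 346 to 440 TPM in WTL) and 5 of 7 for dendritic cells rose. Of 13 proliferation genes 11 fell, from 834 to 894 TPM in WT to 429 to 507 TPM in WTL. Macrophage markers summed to 510 to 560 TPM in WT and 217 to 283 TPM in WTL, and went both ways (1 of 7 rose, 2 fell). Their part in the result was not tested.

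**Figure D3:**
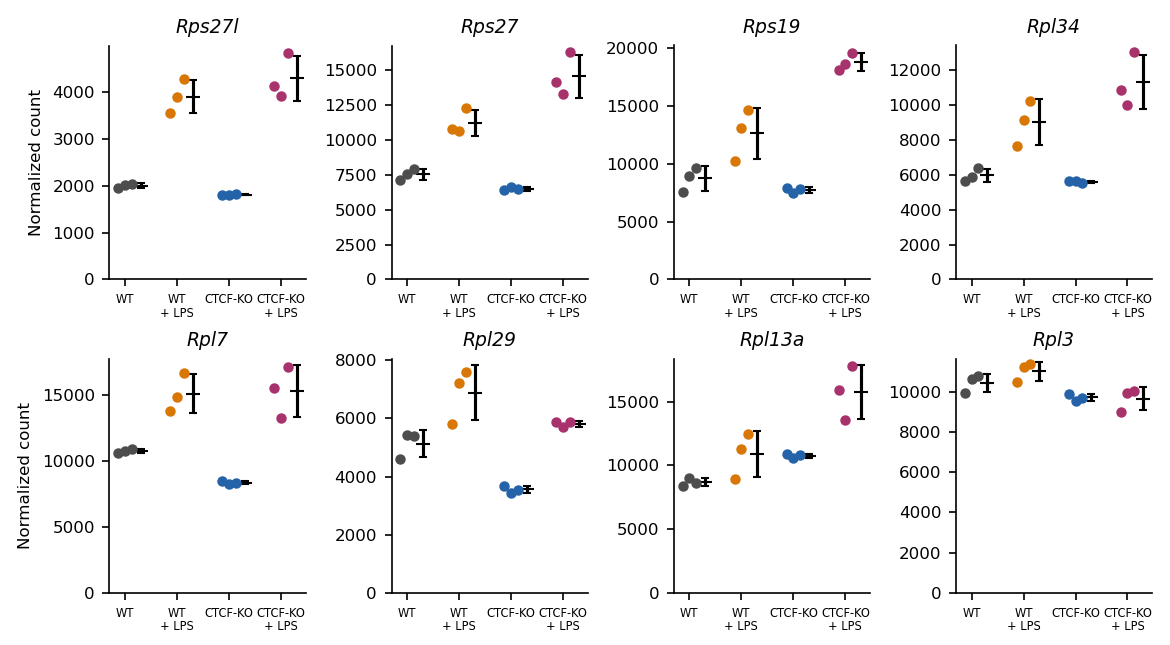
Normalized counts (TMM scaling) of 8 ribosomal protein genes in each of the 12 libraries. Points are libraries and bars are the group mean ± SD (n = 3). Rps27l, Rps27, Rps19 and Rpl34 are higher in both LPS groups, Rpl7 and Rpl29 are lower in KO than in WT, Rpl13a is higher in KO than in WT, and Rpl3 varies little. With total counts as library size, of the differences between WT and WTL among these 8 only the rise of Rps27l and the fall of Rpl3 pass the threshold.

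In the fit of all libraries, depletion of CTCF in unstimulated cells changed fewer members. With TMM scaling, 12 fell and 2 rose, a smaller part of the 77 than of all genes, of which 22.4% fell and 22.2% rose. The median member stood at -0.12 and the median gene at -0.01, and 60 of 77 members were below 0. With total counts 31 fell and none rose, against 29.3% and 16.7% of all genes. At a fold of at least 1.3, 2 members fell (17.2% of all genes) and 1 rose (17.3%).

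Rpl29, a large subunit protein that cells can do without, had 4598, 5426 and 5386 normalized counts in WT and 3686, 3454 and 3539 in KO, a log2 fold change of -0.53 ± 0.09 (adjusted p = 3.6e-04). Every KO library was lower than every WT library. Rpl7 fell to 8498, 8277 and 8291 in KO from 10595, 10767 and 10916 in WT (-0.36 ± 0.09, adjusted p = 0.0048). Rps4x, the X-linked member of the small subunit, had 12961, 13257 and 13466 in WT and 10694, 10417 and 10593 in KO (-0.32 ± 0.08, adjusted p = 0.0035). Other calls included Rps18 (-0.31), Rpl36a (-0.31), Rpl10a (-0.29), Rpl9 (-0.29), Rpl39 (-0.25), Rps6 (-0.21) and Rpl15 (-0.20), as well as Rpl24, which is described separately. All 12 kept their sign with total counts.

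The 2 rises were Rpl13 and Rpl13a. Rpl13a, known also as part of a complex that silences inflammatory messages in myeloid cells, had 8402, 9026 and 8631 normalized counts in WT and 10855, 10573 and 10807 in KO (0.31 ± 0.11, adjusted p = 0.039). Rpl13 had 4967, 5418 and 5275 in WT and 8012, 6761 and 7057 in KO (0.48 ± 0.15, adjusted p = 0.021). For both genes no KO library overlapped WT. With total counts the values were 0.20 (adjusted p = 0.18) for Rpl13a and 0.37 (adjusted p = 0.063) for Rpl13, and neither passed. Of the stretches of 100 bases in Rpl13, 78.9% also occur in its copies.

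The call counts of this comparison depended on which libraries entered the fit. The main fit estimated the spread of each gene over all groups, and the LPS groups were the more variable. Its part in these counts was not tested. The share of all genes called in the fits below is not given, so whether the members stood out there cannot be told. Fitted on the 6 WT and KO libraries alone, 42 members fell and 6 rose. With WTL replicate 1 and KOL replicate 2 left out, 33 fell and 5 rose. Without WT replicate 1, 22 fell, and without KO replicate 1 or 2, 6 did. Without WT replicate 3 or KO replicate 3, 7 fell. No rise was called without any 1 WT library or KO replicate 1, and 1 was called without KO replicate 2 or 3. Dendritic cell markers moved in the same comparison, summing to 10501 to 11070 TPM in WT and 7197 to 7505 TPM in KO, though they went both ways (1 of 7 rose, 3 fell), and Itgax, which encodes CD11c, rose (0.84 ± 0.08). Of the proliferation genes, 10 of 13 fell, with 639 to 654 TPM in KO. Neutrophil markers fell for 5 of 6 genes, to 192 to 224 TPM, with Camp, Elane and Ly6g at 3 counts or fewer. Their part in the result was not tested.

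The values of Rpl24 have to be read beside those of a gene that overlaps it. It lies on chromosome 16 from 55966275 to 55971435 (mm10, plus strand), and Gm28037, an annotated processed transcript from 55966343 to 55980721, overlaps its exons on the same strand. Rpl24 had 4639, 4167 and 4123 normalized counts in KO, below all WT libraries (-0.47 ± 0.07, adjusted p = 1e-04). Gm28037 was at 0, to the nearest count, in all 6 WT and WTL libraries, at 1401, 1752 and 1695 in the KO libraries, and at 0, 0 and 5 in KOL. Its reads thus appeared almost only in KO. The sum of both genes was 6089, 5891 and 5980 in WT and 6040, 5919 and 5818 in KO, and these ranges overlap (-0.02 ± 0.07, adjusted p = 0.88). Whether the reads given to Gm28037 came from Rpl24 or from a transcript of its own was not tested. Most of the Rpl24 coding sequence occurs in Gm28037 (394 of 474 bases from the first codon), and its first 60 bases, in capitals because all are identical in both, are as follows.
Rpl24 and Gm28037, coding bases 1 to 60: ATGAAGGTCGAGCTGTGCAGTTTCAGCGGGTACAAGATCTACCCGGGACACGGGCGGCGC

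**Figure D4:**
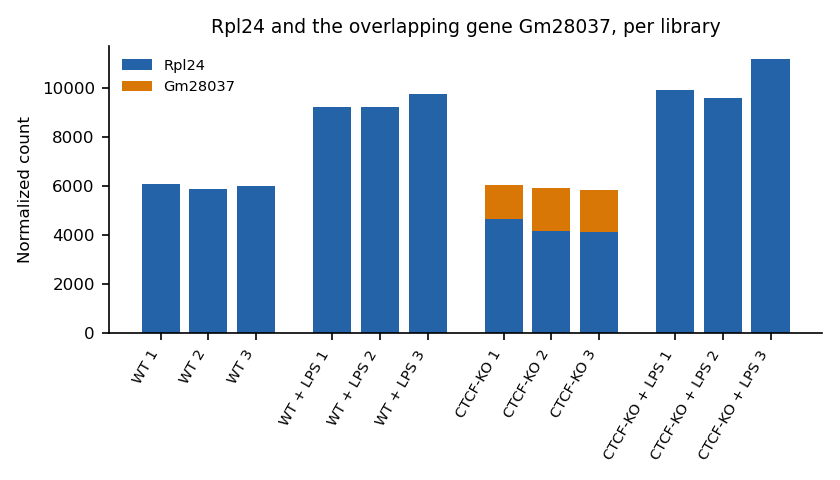
Normalized counts (TMM scaling) of Rpl24 and of the overlapping gene Gm28037, stacked, in each library. Gm28037 has counts in the 3 KO libraries (1401 to 1752) and almost none elsewhere, and the stacked heights of the KO and WT libraries overlap.

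Between the 2 LPS groups, the share of members that rose was that of all genes. For KOL against WTL, 17 rose and 4 fell, against 21.4% and 23.3% of all genes. The share of rises was close to the background and the share of falls was below it. The median member stood at 0.17 and the median gene at -0.04. Of the 77 members, 63 were above the median gene, a count that a change of library size cannot alter. With total counts 20 members rose and 2 fell, and of the calls over all genes 51.7% were rises. Only Rps19, Rpl13a and Rps14 rose by at least 1.3-fold, where 17.2% of all genes did.

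Rps19, a small subunit protein whose gene is the one most often mutated in Diamond-Blackfan anaemia, had 10263, 13087 and 14626 normalized counts in WTL and 18113, 18626 and 19632 in KOL. Every KOL library was higher than every WTL library (0.57 ± 0.11, adjusted p = 9.4e-04). Rpl13a had 8921, 11288 and 12473 in WTL and 15924, 13538 and 17764 in KOL (0.53 ± 0.11, adjusted p = 0.0015). Rps14, which contacts the decoding region, had 11787, 15169 and 16676 in WTL and 18456, 17483 and 21626 in KOL (0.40 ± 0.12, adjusted p = 0.014). Neither overlapped between the groups.

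Rpsa, the laminin receptor homologue of the small subunit, also rose (0.36 ± 0.09, adjusted p = 0.0056), as did Rps27 (0.38 ± 0.08, adjusted p = 0.0021). Rps3, a reported partner of NF-kB, had 12758, 14620 and 16123 in WTL and 16209, 17409 and 17640 in KOL (0.24 ± 0.08, adjusted p = 0.029).

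Falls were small. Rpl10a had 4801, 5480 and 5896 normalized counts in WTL and 4417, 3993 and 4765 in KOL (-0.30 ± 0.09, adjusted p = 0.012). Its groups just failed to overlap, at 4801 and 4765. Rpl36a (-0.28 ± 0.09) and Rpl29 (-0.24 ± 0.09) overlapped between the groups, and Rpl3 (-0.19 ± 0.07) did not. The number of rises was 36 without WTL replicate 3, 34 without KOL replicate 2, 10 without WTL replicate 1 and 6 without KOL replicate 3, so that no firm count can be given. The number of falls was 0 without WTL replicate 3, 1 without KOL replicate 1 and 2 without WTL replicate 2 or KOL replicate 2. For these fits the share of all genes called is not given.

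With TMM scaling, more members passed the threshold for KOL against KO than in the other comparisons. For KOL against KO, 73 members rose and none fell with TMM scaling, against 33.6% and 33.9% of all genes, and 64 rose by at least 1.3-fold (28.8% of all genes). With total counts 40 rose and 2 fell, against 20.5% and 52.2% of all genes. The median member was 0.61 and the median gene -0.02 with TMM, and 0.24 and -0.40 with total counts, a gap of 0.63 that a change of library size cannot alter. On log2(TPM + 1), limma called 33 rises and 4 falls and the gap was 0.54. Of the limma calls over all genes, 24.5% were rises. Shorter members, under the median effective length of 442 bases, had a median of 0.71, and longer ones 0.54. Markers moved as well. Dendritic cell markers summed to 7197 to 7505 TPM in KO and 10329 to 15029 TPM in KOL (5 of 7 rose, 1 fell), and 5 of 6 neutrophil markers rose. Macrophage markers summed to 630 to 656 and 224 to 274 TPM (4 of 7 rose, 2 fell), and 11 of 13 proliferation genes fell. Their part in the result was not tested.

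Rps27 had 6372, 6611 and 6472 normalized counts in KO and 14170, 13246 and 16256 in KOL, a 2.25-fold rise (log2 1.17 ± 0.08, adjusted p = 2.2e-08). Rps19 had 7910, 7475 and 7862 in KO and rose 2.42-fold (1.28 ± 0.12, adjusted p = 2.2e-07), and Rps27l had 1805, 1793 and 1812 in KO and 4122, 3909 and 4839 in KOL (1.25 ± 0.09). The KOL libraries of all 3 genes lay far above every KO library. These rises also passed with total counts, at 0.79, 0.90 and 0.88. Rpl7 rose from 8277 to 8498 in KO to 15521, 13202 and 17124 in KOL (0.87 ± 0.09, and 0.50 with total counts).

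The members not called were Rpl3 (-0.01 ± 0.07, adjusted p = 0.91), Rpl13 (0.18, adjusted p = 0.32), Rpl27a (0.22, adjusted p = 0.11) and Rps2 (0.27, adjusted p = 0.059). Rpl3 had 9891, 9557 and 9701 normalized counts in KO and 9011, 9915 and 10044 in KOL. With total counts Rpl3 fell (-0.38). The proteins RPL5 and RPL11, which bind MDM2 together, came from genes with unlike values. Rpl5 had 7597, 7705 and 7419 in KO and 8344, 8612 and 9251 in KOL (0.21 ± 0.06), but -0.17 with total counts, while Rpl11 had 0.54 and 0.17. Part of the reads of both genes lies in their copies, as given above.

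The difference between the LPS responses of KO and WT cells was tested directly as an interaction. It passed for 5 members, all with the larger response in KO, against 8.70% of all genes in that direction and 8.75% in the other. The median member had a difference of 0.22 and the median gene -0.02, and 72 of 77 members were above 0. Scaled to total counts, 28 members passed and none in the other direction (13.3% and 4.94% of all genes). The WT and KO responses share no libraries. The largest differences were those of Rps19 (0.74 ± 0.16, adjusted p = 0.0058) and Rps27 (0.59 ± 0.12, adjusted p = 0.0036). Both remained past the threshold without any single library, with adjusted p of 0.0017 to 0.02 and 6.3e-04 to 0.014. Rpl24 passed as well (0.59 ± 0.10, adjusted p = 0.0013), but summed with Gm28037 its difference was 0.14 ± 0.10 (adjusted p = 0.37). Rpl9 (0.35 ± 0.10, adjusted p = 0.031) and Rpl26 (0.44 ± 0.14, adjusted p = 0.047), a protein known to bind the p53 message, lost the call without some libraries. The count was 20 without WT replicate 1, 24 without WTL replicate 3 or KOL replicate 2, and 3 without any 1 KO library, WTL replicate 2 or KOL replicate 3. For these fits, too, the share of all genes called is not given.

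**Figure D5:**
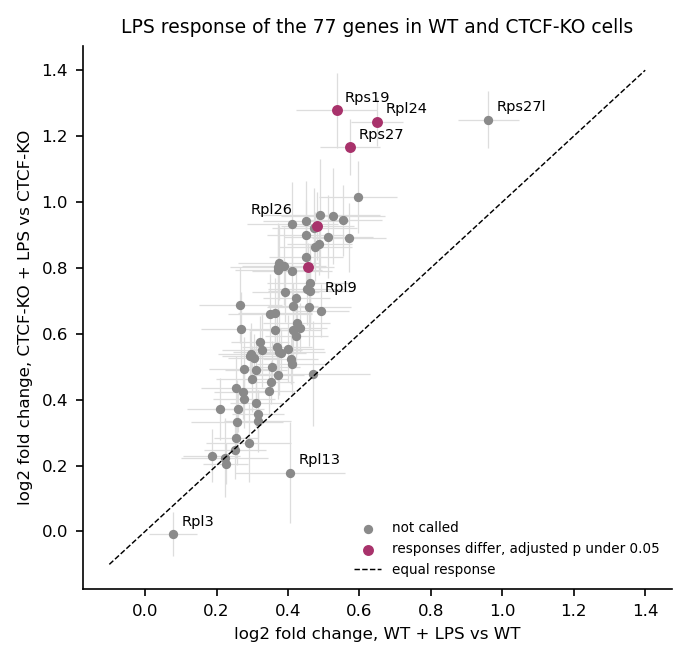
Log2 fold change after LPS (TMM scaling) of each of the 77 genes in WT cells (horizontal) and KO cells (vertical), with SE bars. Coloured points are the 5 genes whose responses differ at an adjusted p under 0.05, and the dashed line marks equal responses. Most points lie above the line, and Rpl3 lies near 0 on both axes. With total counts as library size the median of the 77 genes lies at -0.13 in WT and 0.24 in KO, so that many WT values change sign.

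Part of the spread on the TPM scale lay in the length assigned to a transcript. Mean effective length differed by less than 1.1-fold between groups for 70 members. Rps20 was the widest exception, at 1.66-fold. Its effective length was 1341, 1597 and 1665 bases in WT, 1510, 1262 and 1148 in WTL, 2105, 2013 and 2215 in KO, and 998, 1902 and 923 in KOL. The KO libraries had the longest values, and KOL replicate 2 lay near them and apart from the other KOL libraries. Its TPM ranged 3.44-fold over the 12 libraries, the widest range of any member, against 2.00-fold for its normalized counts.

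Over all 12 libraries the SD of log2 normalized counts had a median of 0.31 for the members and 0.35 for the 1209 genes with a mean of at least 100 TPM. On log2 TPM the medians were 0.18 and 0.32. The narrowest ranges of normalized counts were those of Rpl3, Rpl4 and Rpl5, at 1.26-, 1.32- and 1.34-fold. On TPM this order did not hold, since Rpl3 ranged 1.81-fold with an SD of log2 TPM of 0.30, above the median member, and the narrowest range was that of Rpl6 at 1.23-fold. The widest ranges of normalized counts were those of Rpl24, Rps27l and Rps19, at 2.71-, 2.70- and 2.63-fold. That of Rpl24 includes the KO libraries with reads given to Gm28037, and the sum of both genes ran from 5818 to 11163 normalized counts. All 77 exceed the 100 TPM level, so that the comparison is between abundant genes.

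Several members overlap genes on the other strand that moved in the opposite direction in the same comparison. Lrsam1, with a mean of 115 counts, fell by 1.24 on the log2 scale in WTL against WT where Rpl12 had 0.28. Kank3 fell by 1.42 where Rps28 had 0.39, and Arpc5l fell by 0.38 where Rpl35 had 0.45. The other such pairs were Rpl15 with Nkiras1, Rps25 with Ccdc84, Rps18 with Vps52, Rpl18 with Sphk2 and Rpl32 with Cand2. The methods name a strand-specific library kit, but whether the counting used strand is not given in the sources used here. Without that setting, reads of overlapping exons cannot be told apart. Each partner had fewer counts than the member it overlaps.

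Ribosome components outside the rule also rose after LPS with TMM scaling. Of 7 such genes, 6 rose for WTL against WT and 6 for KOL against KO, where 30.0% and 33.6% of all genes rose. Fau, whose product is processed to the ribosomal protein eS30, had a log2 fold change of 0.47 ± 0.11 in WT cells and 0.95 ± 0.11 in KO cells. Rpl22l1, the paralog of Rpl22, fell by 0.69 on the log2 scale in KO against WT, from 1440, 1219 and 1396 to 863, 833 and 812 normalized counts, while Rpl22 had 0.13 ± 0.08. The share of Rpl22l1 in the summed TPM of the pair was 27.3% ± 2.74 in WT and 17.8% ± 0.54 in KO (SD, n = 3). Rps3a1 also fell in KO (-0.52 ± 0.10, adjusted p = 5.9e-04).

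Genes of the wider machinery of ribosome making were called in both directions. All counts here are with TMM scaling, and no list was tested against all genes. Of all genes, 30.0% rose and 30.2% fell for WTL against WT, and 22.2% and 22.4% for KO against WT. The shares were 21.4% and 23.3% for KOL against WTL, and 33.6% and 33.9% for KOL against KO. Of 15 RNA polymerase I genes, which serve transcription of ribosomal RNA, 2 rose and 3 fell for WTL against WT, 2 and 5 for KO against WT, then 3 and 5 in KOL against WTL, and 3 and 6 for KOL against KO. Polr1a, the largest subunit, was at a mean of 383 normalized counts in WT, 246 in WTL, 718 in KO and 338 in KOL. Of 71 ribosome assembly factors, 15 rose and 18 fell for WTL against WT, 12 and 10 for KO against WT, then 8 and 14 in KOL against WTL, and 19 and 29 for KOL against KO. Sbds, which helps release EIF6 from the large subunit, rose by 2.17 ± 0.07 on the log2 scale in WT cells and by 1.98 ± 0.07 in KO cells. Wdr12, of the PeBoW complex, had -1.52 ± 0.10 and -1.87 ± 0.10.

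Of 20 translation factors and other TOP messages, 12 rose and 2 fell for WTL against WT and 9 and 5 for KOL against KO, with 3 and 2 for KO against WT and 2 and 5 for KOL against WTL. Their median log2 fold change was 0.21 for WTL against WT and 0.16 for KOL against KO, between that of all genes (-0.02 in both) and that of the members. Pabpc1, the poly(A) binding protein, had 0.94 ± 0.07 after LPS in WT cells and 0.72 ± 0.07 in KO cells, and Eif4b had -0.47 ± 0.06 and -0.66 ± 0.06. Of 20 regulators of mTOR, MYC and p53, 8 rose and 8 fell for WTL against WT, 5 and 6 for KO against WT, then 4 and 5 in KOL against WTL, and 8 and 7 for KOL against KO. Myc, an activator of ribosome genes, fell in WT cells after LPS (-1.25 ± 0.15). Tsc1, an inhibitor of mTOR, was higher in KO than in WT (1.51 ± 0.09) and fell in KO cells after LPS (-1.52 ± 0.09). Rps6kb1, which encodes an S6 kinase, was also higher in KO than in WT (0.575 ± 0.103), and Eef2k was lower (-1.79 ± 0.18). These are single genes of a list that went both ways. Of 9 host genes of small nucleolar RNAs, 1 rose and 4 fell for WTL against WT, 1 and 4 for KO against WT, then 5 and 0 in KOL against WTL, and 3 and 0 for KOL against KO. The shares of all genes that rose and fell in each comparison are those given above.

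The 78 genes of mitochondrial ribosomal proteins, which work in another ribosome, had medians near those of all genes. For WTL against WT, 16 rose and 10 fell with a median log2 fold change of 0.05, and for KOL against KO 30 rose and 13 fell with a median of 0.10, where the cytosolic members had 0.38 and 0.61. For KO against WT, 8 rose and 6 fell (median 0.01), and between KOL and WTL the counts were 14 and 7 (median 0.05). Shares of all genes called are those given above for ribosome making. Mrps2 and Mrpl23 fell most in KO, with log2 fold changes of -3.50 ± 0.13 and -3.06 ± 0.24, far more than any cytosolic member.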

How the data were processed

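The data were 12 RNA-seq libraries of CD11c-enriched BMDCs, in 4 groups of 3 taken from the labels. Before deposit the authors removed adapters (Trim Galore), mapped read pairs on mm10 (STAR, version 2.5.1 in the submitters' processing notes) and quantified GENCODE genes with RSEM. The deposited files hold, per gene, the expected count (reads divided among the genes they fit, not normalized), the TPM (scaled by the authors' RSEM run per effective length and per library) and the effective length in bases. The methods name strand-specific libraries, but the strand setting of the counting is not given in the sources used here.

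Expected counts were rounded and fitted over all 12 libraries with edgeR 4.0.16 (quasi-likelihood test, TMM scaling, filterByExpr, 14008 genes, Benjamini-Hochberg adjustment over all of them, in R 4.3.3). The authors used DESeq2, which served as an alternative (version 1.42.0), as did limma 3.58.1 on log2 TPM with a pseudocount of 1 or 0.1. Normalized counts are counts divided by TMM-scaled library size, at the mean library size. Fold changes on log2(TPM + 1) understate changes of low genes. The summed share was compared with an exact permutation test. Pseudogenes were assigned with blastn 2.17.0 (at least 80% identity, 50% coverage). Other steps used Python 3.11.15. The tests were tried on simulated counts first.

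Members and lists were chosen with earlier results of these data known. Named genes were a preset list of members, the 3 largest calls in each direction per comparison, the extremes of level and of spread, and members overlapping genes that moved the opposite way. Values of a few single genes are not reported here.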

Additional observations from a re-analysis of the deposited data

Results flagged for a closer look

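For 5 ribosomal protein genes the LPS response differed between KO and WT cells by a test of the difference itself (edgeR interaction term, adjusted p under 0.05), each with the larger response in KO. They are 6.5% of the 77 members, where 8.70% of all genes passed in that direction. The differences in log2 fold change were 0.74 for Rps19 (adjusted p = 0.0058), 0.59 for Rps27 (adjusted p = 0.0036), 0.59 for Rpl24 (adjusted p = 0.0013), 0.44 for Rpl26 (adjusted p = 0.047) and 0.35 for Rpl9 (adjusted p = 0.031). The value of Rpl24 fell to 0.14 (adjusted p = 0.37) when it was summed with Gm28037, which overlaps it. Rpl26 and Rpl9 lost the call without some single libraries.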

How the results depend on the processing

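The counts of calls rested on the scaling and on single libraries. For most of the fits below the share of all genes called is not given, so the counts are not set against it. Rises for WTL against WT (70) were 1 with total counts and with limma at either pseudocount, and falls were 15 and 21. They were 33 to 76 with 1 library left out. For KO against WT (12 falls, 2 rises), falls were 31 with total counts, 26 with limma, 42 with the compared libraries alone and 33 without WTL replicate 1 and KOL replicate 2, and rises 0, 0, 6 and 5, and 1 with effective length offsets. Leaving out 1 library gave 6 to 22 falls and 0 to 1 rises. For KOL against WTL (17 rises, 4 falls), rises were 31 without a filter, 27 without those 2 libraries, 8 with the compared libraries alone and 6 to 36 with 1 library left out, and falls 2 with total counts, 0 with the compared libraries alone and 0 to 6. For KOL against KO (73 rises), rises were 40 with total counts and 33 with limma, and falls 2 and 4. Leaving out 1 library gave 69 to 76 rises. The interaction (5) gave 9 with DESeq2 size factors, 28 with total counts, 25 without a filter, 17 with DESeq2, 11 and 9 with limma at pseudocounts of 1 and 0.1, 29 without those 2 libraries and 3 to 24 with 1 library left out. The cause was not tested.

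Signs turned only under total counts and limma. For WTL against WT the log2 values (total counts, then limma) were -0.19 and -0.22 for Rpl10, -0.21 and -0.24 for Rpl11, -0.18 and -0.28 for Rpl13a, -0.32 and -0.27 for Rpl22, -0.083 and -0.095 for Rpl39, -0.28 and -0.33 for Rpl5, -0.02 and -0.04 for Rpl7, -0.099 and -0.163 for Rplp0, -0.057 and -0.077 (-0.078 at a pseudocount of 0.1) for Rps27a, -0.187 and -0.246 for Rps3, -0.153 and -0.17 for Rps4x, -0.10 and -0.143 for Rps6, and -0.115 and -0.143 for Rpsa. With limma they were -0.27 for Rps18 and -0.013 for Rps19. For KOL against KO they were -0.017 and -0.181 for Rpl10, -0.144 and -0.123 for Rpl22, -0.168 and -0.30 for Rpl5, and with limma -0.005 for Rplp0 and -0.044 for Rps6.

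The summed level was 5.52% (WT), 5.05% (WTL), 4.85% (KO) and 5.77% (KOL) as a share of counts. It was 16.52%, 14.88% and 16.94% in WT, KO and KOL without ribosomal RNA and mitochondrially encoded genes, and 16.23%, 14.25% and 16.70% with pseudogenes. With a replicate block, 72 rose for WTL against WT, 14 fell and 2 rose for KO against WT, 19 rose and 3 fell for KOL against WTL, 73 rose for KOL against KO and 7 passed for the interaction. After removal of group means, same-numbered libraries correlated between -0.287 and 0.113 over 18 pairs, so that no pairing by number was seen. The highest correlation between groups was 0.329, of WTL replicate 1 with KOL replicate 2. Whether any libraries were prepared together was not tested. Leaving out WTL replicate 1 and KOL replicate 2 together, and summing Rpl24 with Gm28037, were chosen after seeing the data.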
